A study of Mus musculus with 24 samples.

Results

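The 9 genes of iron and heme handling described here are Hmox1, Blvrb, Tfrc, Slc11a2, Fth1, Ftl1, Slc40a1, Aco1 and Ireb2. They were chosen by name, with earlier results of these data known, and all 9 were found among the 22371 genes of the RNA-seq tables. The cells came from mouse bone marrow and had been immortalized through HOXA9, which keeps myeloid progenitors growing. They carried a vector for IDH1 R132H, a mutant isocitrate dehydrogenase that makes 2-hydroxyglutarate, and both RNA libraries came from this mutant line. Cells of the first group were untreated. Those of the other had received vitamin C to 0.345 mM at 0, 24 and 48 h and were collected at 72 h. When untreated cells were collected, the promoter of the vector and whether the line is 1 clone were not given in the sources used here. All cells grew with interleukin 3, interleukin 6 and stem cell factor. The series held 24 samples in 24 groups, of which 18 had files that were used here. All of these were from the mutant line except 1 methylation list, which carries the name of the mutant but is attached to untreated cells with wild-type IDH1. With 1 library per group, each difference compares a pair of libraries and has no replicate check, and no p-value was calculated for any gene.

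Cells take up iron bound to transferrin through the transferrin receptor, store it in ferritin and release it through ferroportin. Heme oxygenase opens the heme ring and frees its iron, and biliverdin reductases reduce the pigment that is left. The proteins of Aco1 and Ireb2 bind iron responsive elements when iron is scarce, which blocks translation of ferritin mRNA and protects the transferrin receptor mRNA from decay. Ferritin protein is therefore set largely at translation, which none of these assays measured. Macrophages are the main cells that recycle heme iron, while dividing progenitors mostly take iron up.

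Runx1 peaks lay over a transcription start of Tfrc, Fth1 and Ftl1, which had higher transcript levels with vitamin C. They also lay over starts of Blvrb, Aco1 and Ireb2, which were not higher. Hmox1 and Slc40a1, with the largest log2 changes, and Slc11a2 had none over a start. The 250 bases before those starts of Tfrc, Fth1 and Ftl1 are shown because the peaks below lie on them. They were picked with the transcript levels known. The sequences are from RefSeq (GRCm38.p6, the same assembly as mm10) and read 5′ to 3′ on the strand of the gene. Capitals mark matches on either strand to TGTGGT and TGCGGT, forms of the RUNX core, and to CCAAT, a common promoter element. The Tfrc stretch lies at chr16:32608646-32608895 on the plus strand, before the first of 2 listed starts. The Fth1 stretch lies at chr19:9982396-9982645 on the plus strand, before the second of 2 listed starts and inside the RefSeq gene span, which begins at the first. The Ftl1 stretch lies at chr7:45459887-45460136 on the minus strand.
Tfrc: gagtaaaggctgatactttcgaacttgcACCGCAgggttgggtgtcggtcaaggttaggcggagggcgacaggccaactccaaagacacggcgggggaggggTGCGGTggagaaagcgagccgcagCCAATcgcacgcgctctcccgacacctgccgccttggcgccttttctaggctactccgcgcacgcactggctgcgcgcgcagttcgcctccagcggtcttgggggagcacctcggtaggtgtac
Fth1: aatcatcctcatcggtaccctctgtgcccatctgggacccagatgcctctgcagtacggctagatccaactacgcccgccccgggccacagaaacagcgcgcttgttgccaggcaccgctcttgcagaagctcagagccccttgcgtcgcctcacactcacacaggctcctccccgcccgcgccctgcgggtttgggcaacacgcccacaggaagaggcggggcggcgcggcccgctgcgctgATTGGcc
Ftl1: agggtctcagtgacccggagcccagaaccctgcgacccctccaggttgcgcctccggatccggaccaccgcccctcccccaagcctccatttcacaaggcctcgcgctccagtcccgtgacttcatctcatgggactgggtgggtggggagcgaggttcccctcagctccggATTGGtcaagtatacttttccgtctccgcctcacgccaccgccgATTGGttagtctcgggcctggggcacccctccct
The Tfrc stretch held 2 matches to TGCGGT, at chr16:32608674-32608679 and chr16:32608748-32608753, and 1 to CCAAT. The Fth1 stretch held 1 CCAAT match, at chr19:9982639-9982643 close to the start, and the Ftl1 stretch held 2.

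The RNA-seq tables summed to 86804487 counts untreated and 111453443 with vitamin C, and the members took 0.224% and 0.388% of them. Level was given by the authors as RPKM, reads scaled to gene length and library size. A log2 change here is log2 of (RPKM with vitamin C + 0.5) over (RPKM untreated + 0.5), which understates the change of low genes. A gene counted as measured if it reached 1 RPKM in either library, which left 10436 genes with a median log2 change of −0.04. All 9 members passed this filter. Of the measured genes 2.38% were 2-fold or more higher with vitamin C and 1.92% were 2-fold or more lower. Intervals are exact 95% binomial intervals of the RPKM ratio and cover counting error only.

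The largest difference among the members was that of Hmox1, the inducible heme oxygenase (ENSMUSG00000005413, chr8:75093618-75100593). It had 2031 reads and 12.9 RPKM untreated, and 20255 reads and 101 RPKM with vitamin C. The level was 7.80-fold higher with vitamin C (interval 7.46 to 8.17), a log2 change of 2.92 and rank 13 from the top of the 10436 measured genes. By level, Hmox1 stood at rank 5774 of the measured genes untreated and at rank 680 with vitamin C. Blvrb, the flavin and biliverdin IXβ reductase, had 305 and 378 reads. Its level was 2.96 RPKM without and 2.88 RPKM with vitamin C, and the interval of the ratio, 0.832 to 1.13, included no change. Hmox1 was at 4.36 times the level of Blvrb untreated and at 35.1 times with vitamin C, both ratios of RPKM. Blvra, the other biliverdin reductase gene in the lists used here, was at 10.7 RPKM without and 12.7 RPKM with vitamin C. Its ratio was 1.19 (interval 1.12 to 1.26). In such bulk libraries, a change in the share of cells of one type and a change in RNA per cell cannot be told apart.

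**Figure D1:**
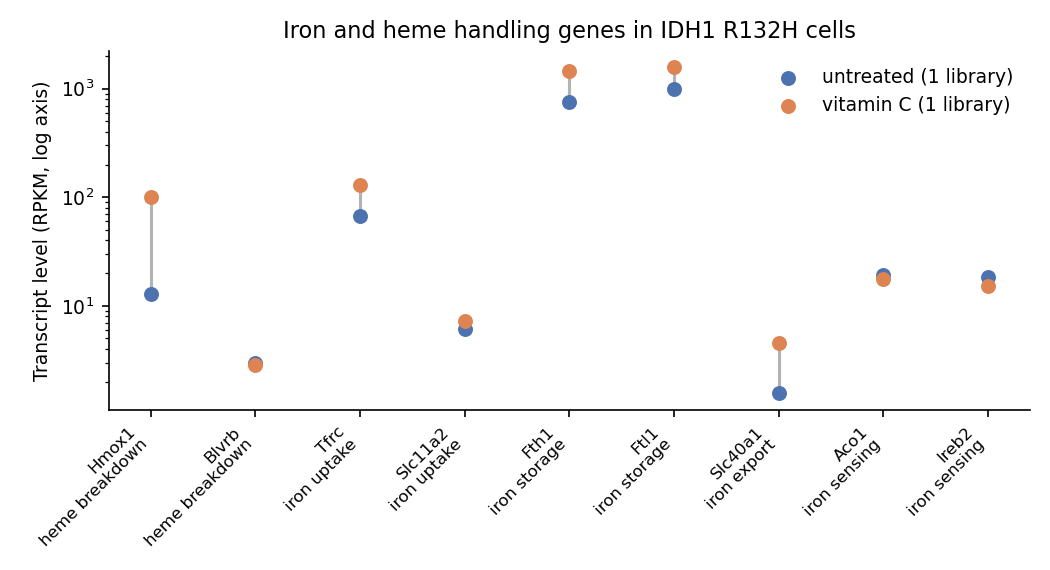
Transcript level of each member in RPKM on a log axis, with 1 point per library, untreated or with vitamin C, and a line joining the pair. Hmox1 moved from 12.9 to 101 RPKM, while the ferritin genes stood highest in both libraries and Blvrb, Aco1 and Ireb2 lay close to their untreated levels.

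Slc40a1 encodes ferroportin, the iron exporter (ENSMUSG00000025993, chr1:45908070-45926532). It was the lowest member untreated, with 383 reads and 1.56 RPKM, and had 1427 reads and 4.54 RPKM with vitamin C. This was 2.91-fold higher (interval 2.60 to 3.27), a log2 change of 1.29. With Hmox1 it made 2 of 9 members that were 2-fold or more higher, against the 2.38% of all measured genes, and 0 of 9 were 2-fold or more lower.

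The transferrin receptor gene Tfrc (ENSMUSG00000022797, chr16:32608896-32632794) had 30428 reads and 67.7 RPKM untreated, and 75136 reads and 131 RPKM with vitamin C. The ratio was 1.93 (interval 1.91 to 1.96), just short of 2-fold. Slc11a2 encodes DMT1, which moves ferrous iron out of endosomes. It was at 6.09 RPKM without and 7.26 RPKM with vitamin C, a ratio of 1.19 (interval 1.14 to 1.25). Its span, chr15:100387898-100424209, overlaps the noncoding gene Gm5475 by 1017 bp, and whether strand was used in counting was not given in the sources used here.

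Both ferritin genes were among the most abundant transcripts. Fth1, the heavy chain that oxidises iron on entry (ENSMUSG00000024661, chr19:9980600-9985111), had 48004 reads and 762 RPKM untreated, and 117857 reads and 1465 RPKM with vitamin C. That ratio was 1.92 (interval 1.90 to 1.94), and the rank by level among measured genes was 38 untreated and 12 with vitamin C. Ftl1, the light chain (ENSMUSG00000050708, chr7:45457944-45459886), was at 989 RPKM without and 1583 RPKM with vitamin C, from 96325 and 197077 reads, a ratio of 1.60. A near-identical copy, Ftl1-ps1, carried 65011 and 129888 reads (970 and 1516 RPKM), so the split of reads between these genes is uncertain. Summed, the pair was at 1958 RPKM without and 3099 RPKM with vitamin C, a log2 change of 0.66 against 0.68 for Ftl1 alone. The level of Fth1 relative to Ftl1 was 0.771 untreated and 0.925 with vitamin C. Relative to Tfrc, Fth1 was at 11.3 untreated and 11.2 with vitamin C, while Ftl1 was at 14.6 and 12.1, so the storage transcripts did not both keep their ratio to this uptake transcript.

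The genes of the iron sensors did not share this direction. Aco1, whose protein is cytosolic aconitase when it holds an iron-sulfur cluster and iron regulatory protein 1 when it does not (ENSMUSG00000028405, chr4:40143265-40199009), was at 19.1 RPKM without and 17.8 RPKM with vitamin C. Its ratio was 0.928 (interval 0.897 to 0.959). Ireb2, which encodes iron regulatory protein 2 (ENSMUSG00000032293, chr9:54862658-54912534), was at 18.5 and 15.1 RPKM, a ratio of 0.816 (interval 0.791 to 0.841). Among the members, Aco1 and Ireb2 lay next to each other in level in both libraries. Without replicates it cannot be said whether such neighbours differ beyond the spread between samples.

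The median log2 change of the 9 members was 0.68, against −0.04 for all measured genes. At a smaller fold, 5 of 9 members were 1.5-fold or more higher, where 6.21% of measured genes were, and 0 of 9 were 1.5-fold or more lower, where 6.64% were. These 5 were Hmox1, Slc40a1, Tfrc, Fth1 and Ftl1. The members were chosen with earlier results of these data known, so these shares describe that choice and do not test it. In the authors' deposited table of 450 higher genes, 3 members appear, Hmox1, Tfrc and Slc40a1. The table of 221 lower genes held 0 of the 9, and the RNA-seq tables held 22371 genes in all. Fth1, at a ratio of 1.92 beside 1.93 for Tfrc, is in neither the higher nor the lower table. With TMM or median-of-ratios scaling the median of all measured genes moved from −0.04 to 0.01, and Tfrc, at a log2 change of 1.00, joined the members past 2-fold. Under TMM scaling the log2 change of Fth1 was also 1.00 when rounded, and it did not reach 2-fold.

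**Figure D2:**
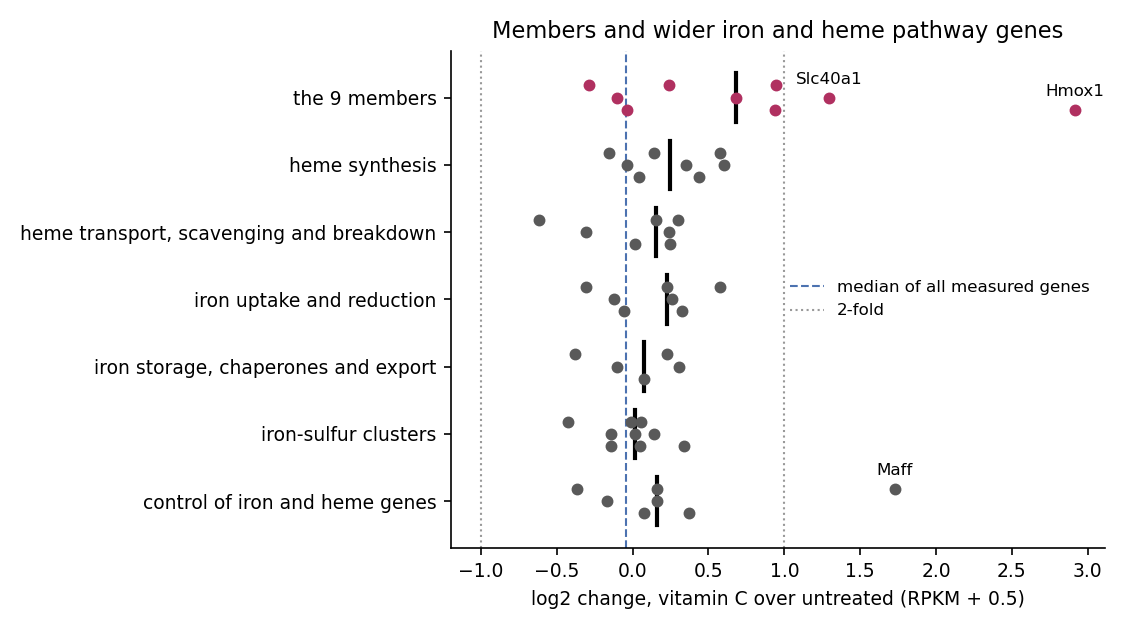
Log2 change of each measured gene, vitamin C over untreated on the scale of RPKM + 0.5, with 1 row for the 9 members and 1 for each of 6 lists of further iron and heme genes. Short black lines are list medians, the dashed line is the median of all measured genes at −0.04, and dotted lines mark 2-fold. Hmox1, Slc40a1 and Maff lie past 2-fold.

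Beyond the members, 43 of 61 further iron and heme genes were measured. Of these, 1 was higher by 2-fold or more and 0 were lower by as much, shares near those of all measured genes, and the median log2 change was 0.08. The 1 past 2-fold was Maff, a small Maf partner of the factors at antioxidant response elements, at 2.48 RPKM without and 9.37 RPKM with vitamin C. It is the 1 gene of these lists in the authors' deposited table of higher genes. Its partners differed less. Bach1, the repressor that heme displaces from such elements at Hmox1, was at 17.3 and 13.3 RPKM. Nfe2l2, which encodes the activator NRF2, was at 36.5 and 38.4 RPKM, and Keap1, which marks NRF2 for degradation, at 28.7 and 25.5 RPKM. Mafk, another small Maf, was at 20.3 and 26.4 RPKM.

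Of the genes for heme synthesis, 8 of 9 were measured, with a median log2 change of 0.25 and 0 past 2-fold. Cpox, coproporphyrinogen oxidase, was at 11.01 RPKM without and 17.0 RPKM with vitamin C, and Alas1, the first enzyme of the pathway, at 45.9 and 68.8 RPKM. Uros stood at 4.60 and 6.40 RPKM. Among 7 measured genes of heme transport, scavenging and breakdown, Hp, the hemoglobin-binding haptoglobin, was at 56.7 and 36.9 RPKM. Hmox2, the constitutive heme oxygenase, was at 23.2 RPKM without and 18.7 RPKM with vitamin C, the opposite direction to Hmox1. Slc48a1, a heme carrier of lysosomes, was at 151 and 185 RPKM.

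None of the measured genes of uptake, storage or iron-sulfur cluster assembly, 7, 5 and 9 genes, was 2-fold or more different in either direction. In the uptake list, Hfe, a partner of the transferrin receptors, was at 0.915 and 1.61 RPKM, Mcoln1, a lysosomal channel, at 15.4 and 19.4 RPKM, and Tfr2 at 51.4 and 41.5 RPKM. Slc25a37, which brings iron into mitochondria, was at 42.6 and 32.6 RPKM, Ncoa4, the receptor that takes ferritin to lysosomes, at 88.4 and 109 RPKM, and the iron chaperone Pcbp1 at 461 and 538 RPKM. Of the genes for iron-sulfur cluster assembly, Isca1 was at 9.51 and 12.2 RPKM, and Glrx5 at 78.2 and 70.7 RPKM. Hfe reached 1 RPKM with vitamin C only.

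Markers of several cell types also differed between the libraries, and their part in these results was not tested. Of 10 macrophage markers 3 were measured, Cd68 at 34.3 and 114 RPKM, Adgre1 at 165 and 298 RPKM and Csf1r at 0.874 and 1.35 RPKM, the last of which reached 1 RPKM with vitamin C only. Their list summed to 200 RPKM untreated and 413 RPKM with vitamin C, while Cd163, Vcam1, Marco, C1qa and Timd4 had 0 counts in both libraries. The erythroid list, with 4 of 10 measured, summed to 1308 and 1460 RPKM, mostly Hbb-bt and Hbb-bs, and Alas2, Slc4a1 and Ermap had 0 counts in both. Within it, 2 genes were 2-fold or more higher, the alpha globin genes Hba-a1, with 8 and 311 reads (0.135 and 4.12 RPKM), and Hba-a2, with 11 and 227 reads (0.227 and 3.66 RPKM). Both are in the authors' deposited table of higher genes, both passed 1 RPKM with vitamin C only, and they are near-identical copies whose reads may be split. All 9 markers of myeloid progenitors, the labelled kind of cell, were measured and summed to 6925 RPKM untreated and 3646 RPKM with vitamin C, with 4 of them 2-fold or more lower, Mpo, Prtn3, Kit and Hoxa9. Hoxa9, the mouse gene of the factor used to immortalize the line, was at 3062 and 1487 RPKM and made up much of the difference in the sum. Whether reads of an introduced copy are among those of Hoxa9 was not tested. Mpo, Prtn3 and Kit are in the authors' deposited table of lower genes, and Hoxa9 is not. Cd34 went the other way, at 299 and 498 RPKM. Of 6 mast cell and basophil markers 5 were measured and summed to 2065 and 2790 RPKM, and 2 of them, Cma1 and Ms4a2, were 2-fold or more higher, of which Cma1 reached 1 RPKM with vitamin C only.

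Chromatin around the members was described from lists of ChIP-seq peaks, 1 list per library, whose depth is unknown. H3K4me3 marks active promoters, H3K4me1 marks enhancers and their flanks, and H3K27ac marks active elements of both kinds. PU.1 and Runx1 are myeloid transcription factors. The number of listed peaks differed between libraries, with 61611 PU.1 peaks untreated and 23522 with vitamin C, and 3908 and 6250 for Runx1. A peak present in 1 list may therefore fall short of the threshold in the other. The value of each peak was set by the authors and served here as a percentile within a list, and percentiles in separate lists show no change. Scores of all PU.1 peaks had a median of 8.78 untreated and 7.39 with vitamin C. Pairs of PU.1 scores given below are as listed and do not measure a change in binding. Positions are in mm10.

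Within 50 kb of the member spans, 64 H3K4me1 peaks were listed untreated and 41 with vitamin C. Of these, 47 and 24 overlapped no peak of the other library, 73.4% and 58.5%, against 58.9% and 42.5% of all H3K4me1 peaks. H3K4me3 had 71 and 83 peaks, 5 and 9 of them without a counterpart (all peaks 9.53% and 14.3%). For H3K27ac there were 59 and 61 peaks, 4 and 8 without a counterpart (all peaks 13.4% and 11.2%). PU.1 had 59 and 24 peaks, 38 and 2 without a counterpart (all peaks 63.9% and 4.83%). Runx1 had 13 and 23 peaks, 0 and 10 without a counterpart (all peaks 18.2% and 49.3%). The counts near the members went in the same direction as the lengths of the factor lists, fewer for PU.1 and more for Runx1 with vitamin C. When both PU.1 lists were held to the same number of strongest peaks, 22 untreated and 24 vitamin C peaks lay near the members. Held in the same way, Runx1 had 13 and 19 peaks there and H3K4me1 51 and 41, so these counts still differed. H3K4me3 then had 71 and 79 and H3K27ac 59 and 61.

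**Figure D3:**
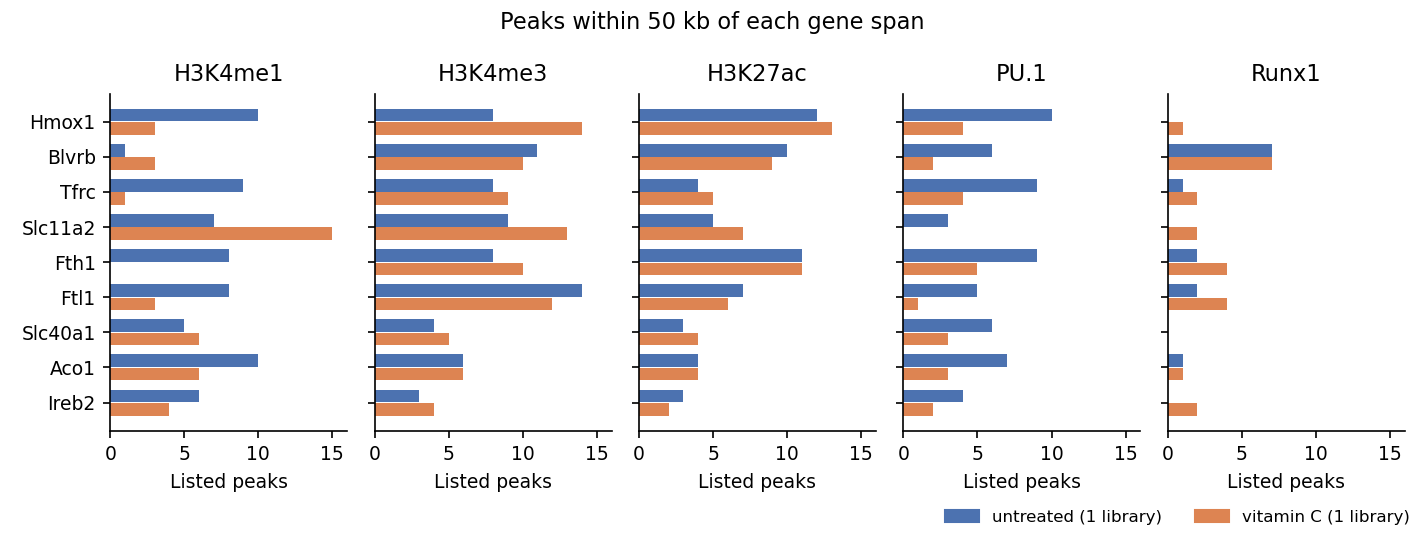
Number of listed peaks within 50 kb of each member span, by mark, with 1 bar per library. PU.1 had fewer peaks with vitamin C at each of the 9 genes, and H3K4me1 had fewer at Hmox1, Tfrc, Fth1, Ftl1, Aco1 and Ireb2 and more at Blvrb, Slc11a2 and Slc40a1. The whole PU.1 and H3K4me1 lists were also shorter with vitamin C.

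The H3K4me1 counts went in both directions among the members. The whole H3K4me1 list was shorter with vitamin C, at 57750 peaks untreated and 45657 with vitamin C, which bears on these counts. Fth1 had 8 such peaks untreated and 0 with vitamin C, Tfrc 9 and 1, Hmox1 10 and 3, and Ftl1 8 and 3. Slc11a2 had 7 untreated and 15 with vitamin C. The genes with higher RNA were on both sides, since Slc40a1 had 5 and 6 peaks. H3K27ac counts stayed within 2 of each other at each member.

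At Hmox1, H3K4me3 covered the start in both libraries, at chr8:75093115-75094330 untreated (percentile 93.4 of its list) and chr8:75092961-75094503 with vitamin C (percentile 87.1). The start used for Hmox1 was itself placed by H3K4me3 peaks of both libraries, so their position over it follows from that choice. A cluster of H3K4me3 and H3K27ac peaks stood upstream in both libraries, with untreated H3K4me3 peaks 3320 to 11349 bp before the start. An H3K27ac peak of this cluster, chr8:75089305-75089562, was listed untreated only, as was a wide H3K4me1 peak over the cluster, chr8:75081281-75090851. Hmox1 is known for upstream enhancers bound by BACH1 and NRF2, neither of which was mapped here. The strongest PU.1 peak upstream lay 7080 bp before the start, at chr8:75086032-75086538, with a score of 144 untreated (percentile 98.7). The vitamin C list held a peak there, chr8:75086013-75086472, with a score of 70.2 (percentile 96.5). Another PU.1 peak, 3632 bp before the start, had a score of 23.7 untreated, and its counterpart with vitamin C had 6.25. A PU.1 peak inside the gene, chr8:75094364-75094556 (score 6.50), was listed untreated only. The strongest PU.1 peak of the window, chr8:75119314-75120258 with a score of 166 untreated and chr8:75119699-75120189 with 105 with vitamin C, lies in the neighbouring gene Mcm5. The 1 Runx1 peak of the Hmox1 window also lies there and was listed with vitamin C only.

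**Figure D4:**
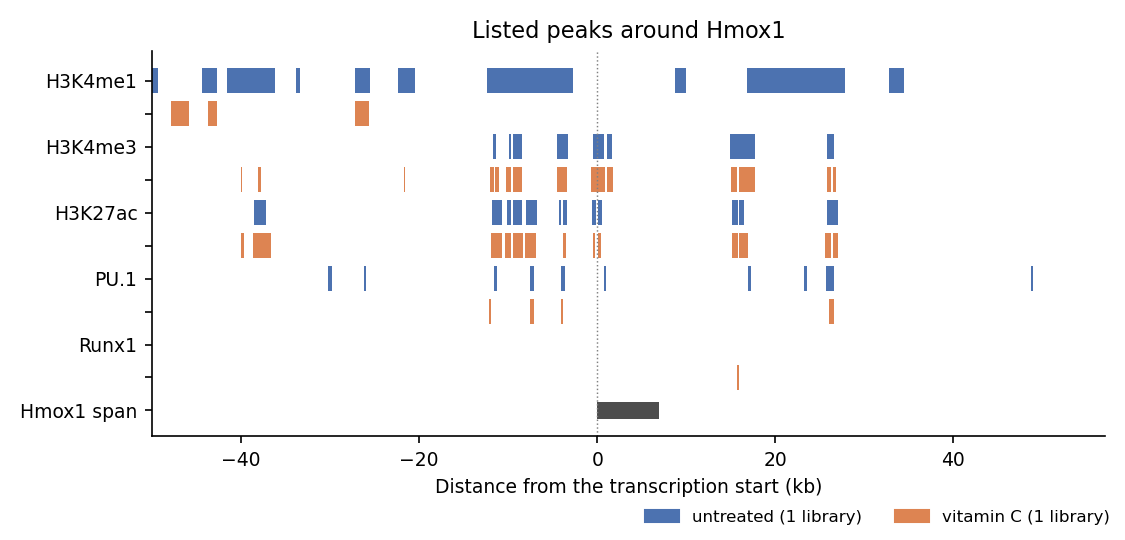
Listed peaks around Hmox1 by distance from its start in kb, with a pair of rows per mark for the untreated and vitamin C libraries and the gene span below. H3K4me3 and H3K27ac peaks stand upstream of the start in both libraries, while 10 H3K4me1 peaks were listed untreated and 3 with vitamin C.

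Inside Slc40a1, several peaks were listed with vitamin C and not untreated. H3K4me3 was listed at its start end in both libraries, chr1:45925124-45926518 untreated and chr1:45924805-45926562 with vitamin C. That end was taken as the start because of H3K4me3 peaks in both libraries, so their position there is no separate result. An H3K27ac peak, chr1:45925308-45925577, and 4 H3K4me1 peaks from chr1:45916947-45917784 to chr1:45926150-45926543 were listed with vitamin C only. The H3K27ac peak was weak (percentile 7.57 of its list), and the strongest of the H3K4me1 peaks stood at percentile 98.2. A PU.1 peak near the far end of the gene was listed in both libraries, with scores of 13.7 untreated and 11.03 with vitamin C. Runx1 had 0 peaks within 50 kb of Slc40a1 in either list.

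At Fth1, wide H3K4me1 peaks flanked the second start untreated, chr19:9973045-9982498 and chr19:9984056-9991777, and the vitamin C list held none in the window. H3K4me3 and H3K27ac lay over this region in both libraries. PU.1 peaks 5306 and 1940 bp before the first start had scores of 62.3 and 36.6 untreated, and 15.7 and 12.5 for their counterparts with vitamin C. Near Ftl1, a PU.1 peak just past the end of the gene, chr7:45457213-45457816, had a score of 87.0 untreated and 5.48 with vitamin C. At Tfrc, PU.1 peaks over and just after the start, with scores of 4.00 and 9.32, were listed untreated only. Each of the 9 members had fewer PU.1 peaks with vitamin C, whichever way its RNA differed, and the shorter vitamin C list bears on each of these counts.

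**Figure D5:**
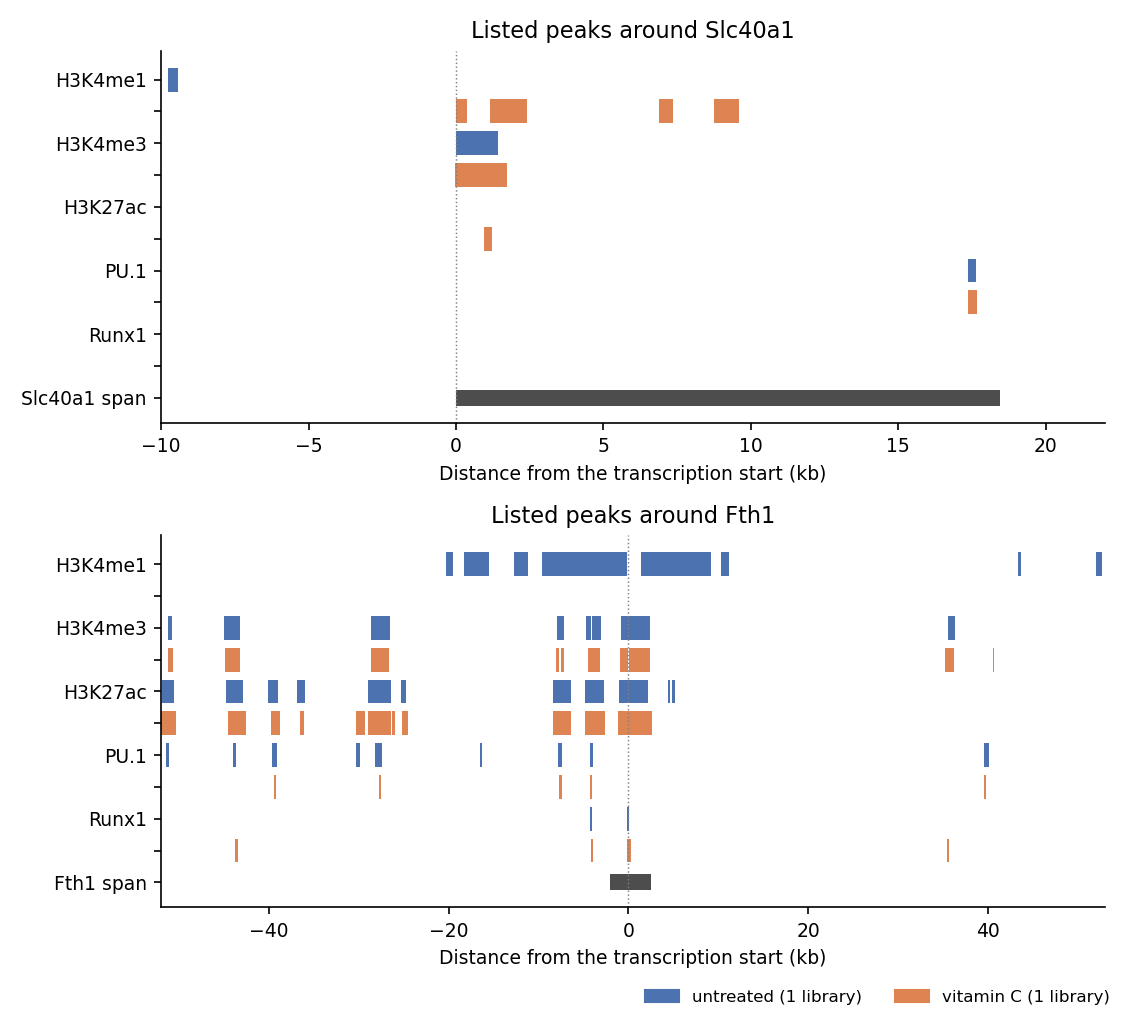
Listed peaks around Slc40a1 (top) and Fth1 (bottom, from its second start) by distance from the start in kb, with a pair of rows per mark for the untreated and vitamin C libraries. In Slc40a1 4 H3K4me1 peaks and 1 H3K27ac peak were listed with vitamin C only, and around Fth1 8 H3K4me1 peaks were listed untreated and 0 with vitamin C.

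Runx1 stood over the starts of most members. RefSeq promoter windows, from 250 bases before to 50 after a start, were at hand for Blvrb, Tfrc, Fth1, Ftl1, Aco1 and Ireb2. A Runx1 peak overlapped such a window in 5 of these 6 genes untreated and in 6 of 6 with vitamin C, against 25.6% and 45.2% of 8090 measured genes with a window. PU.1 peaks overlapped 2 of 6 untreated (Tfrc and Aco1) and 1 of 6 with vitamin C (Ireb2), against 29.5% and 11.6%. H3K4me3 was present in 6 of 6 in both libraries, against 94.1% and 94.4%. H3K27ac was present in 5 of 6 in both, all but Blvrb, against 86.1% and 85.6%.

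The Runx1 peak over the first Blvrb start was the strongest over any member start, with a score of 43.0 untreated and 171 with vitamin C (percentiles 96.1 and 99.2). It overlaps the neighbouring gene Sptbn4 as well. At Aco1 the score was 28.0 untreated and 109 with vitamin C, at Fth1 35.8 and 90.0, at Tfrc 7.62 and 37.6, and at Ftl1 1.84 and 18.1. Ireb2 had a peak with vitamin C only, with a score of 28.3. Slc11a2 likewise had a peak 789 bp after its start with vitamin C only, with a score of 24.0. Scores of all Runx1 peaks had a median of 7.78 untreated and 14.5 with vitamin C, so scores were not compared between the lists. Genes with a Runx1 peak over the start included those with higher RNA (Tfrc, Fth1 and Ftl1) and those without (Blvrb, Aco1 and Ireb2).

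The vitamin C peak at Tfrc, chr16:32608666-32609037, covered both TGCGGT matches in the sequence above, and the untreated peak, chr16:32608808-32608988, covered neither. The vitamin C peak was the wider, at 372 bp against 181 bp, as were those over the starts of Blvrb, Fth1, Ftl1 and Aco1. TGCGGT was added to the search after the data were seen, and whether binding at these matches differed was not tested. TGCGGT was found in 7.44% of 21263 promoter windows of protein-coding genes and in 1 of 9 member windows. TGTGGT was found in 15.0% of all windows and in 1 of 9, before the second Blvrb start. The windows of Fth1 and Ftl1 held neither form. CCAAT was found in 38.2% of all windows and in 3 of 9, those of Ftl1, the first Tfrc start and the second Fth1 start. The hypoxia core ACGTG, in 20.9% of all windows, was found in both Tfrc windows, which overlap there, and before the second Blvrb start. The antioxidant response core TGACNNNGC (13.0% of all windows), the AP-1 site TGANTCA (6.99%), the PU.1 core GAGGAAGT (3.13%) and the bulge and loop of the iron responsive element (a C, any 5 bases, then CAGTG, on the plus strand, 10.4%) had 0 matches in the 9 windows. All but the last were searched on both strands. The 9 windows belong to Blvrb, Tfrc, Fth1, Ftl1, Aco1 and Ireb2, so Hmox1, Slc40a1 and Slc11a2 were not searched. Sequence outside the windows, which includes most of each transcript, was not searched either. A count of 0 matches therefore does not show that a gene lacks an element. A match is a description of the letters only.

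Listed methylation regions lay near 7 of the 9 members when 6 lists were pooled, and the same share over all genes was not calculated. MeDIP and hMeDIP pull down methylated and hydroxymethylated DNA, and WGBS reads methylation after bisulfite conversion. The lists hold positions without values, and which libraries were compared, and in which direction, was not given in the sources used here, so each is named by its label. Regions within 50 kb were found at 2 of 9 members in the mutant MeDIP list (31.4% of 21631 protein-coding genes), at 2 in the MeDIP deMR list (28.4%) and at 2 in the MeDIP iMR list (22.2%). The hMeDIP iHR list had regions at 5 members (37.5%), the WGBS iMR list at 1 (32.5%) and the WGBS deMR list at 3 (36.4%). Fth1 and Ireb2 had none in any of the 6 lists.

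Of these regions, 5 lay inside a member span. The hMeDIP iHR region chr7:45457751-45458500 covers the far end of Ftl1 and overlaps H3K4me3, H3K27ac and PU.1 peaks of both libraries, among them the PU.1 peak with scores of 87.0 and 5.48. Slc40a1 held the hMeDIP iHR region chr1:45915501-45916000, 10532 bp into the gene and under no listed peak. In Blvrb the WGBS iMR region chr7:27448528-27448734 began 550 bp after the first start, under H3K4me3 in both libraries. Blvrb also held the mutant MeDIP region chr7:27454436-27454936, and Aco1 the MeDIP iMR region chr4:40172501-40173250, both under no listed peak. Hmox1 had 2 hMeDIP iHR regions in its window, the nearer 25618 bp upstream in Tom1, where it overlaps H3K4me1 peaks of both libraries and a PU.1 peak listed untreated. At Tfrc the WGBS deMR region chr16:32666148-32666340, in the neighbouring gene Tnk2, overlaps the strongest PU.1 peak of the window, chr16:32666153-32666675 with a score of 37.2, which was listed untreated only.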

How the data were processed

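The authors deposited a whole-number read count and an RPKM value per gene and library, a p-value or q-value per histone peak (which of these is not stated) and a score of unstated definition per PU.1 and Runx1 peak. The submitters' processing notes name BWA, Novoalign 3.02.08, SAMtools, Picard, MACS2 2.1.0.2 and the build mm10, without their roles. Which tool and annotation gave the gene counts is not given in the sources used here.

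From these files, log2 changes, counts past 2-fold and exact 95% binomial intervals were computed with Python 3.11.15 and scipy 1.17.1, and scaling alternatives with edgeR 4.0.16 and DESeq2 1.42.0 in R 4.3.3. No test between conditions was possible with 1 library per group. Routines were tested on simulated data. Repeated peak intervals were removed, and an overlap of 1 bp counted as shared. For the 3 members without a RefSeq promoter window (Hmox1, Slc40a1 and Slc11a2), the start was the span end within 1 kb of an H3K4me3 peak in both libraries. MeDIP and hMeDIP starts are as listed and may be off by 1 bp.

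The members and lists were chosen with earlier results of these data known. Named were all members, up to 3 genes per list with the largest absolute log2 change, Bach1, Nfe2l2 and Keap1, peaks over starts, the strongest peaks, and regions inside or within 10 kb of a member. Marker genes, Blvra, further peaks in the Hmox1, Fth1, Slc40a1 and Tfrc windows and the regions in Tom1 and Tnk2 are not covered by it. All of these were picked with their values in view. Hjv, which had no entry under that symbol, was not analysed here. The values of 1 other listed gene are not reported here. The motifs TGCGGT and CCAAT and the summed ferritin light chain were added after the data were seen. Depth limits precision through read counts alone, as ChIP and methylation depth is unknown.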

Additional observations from a re-analysis of the deposited data

How the results depend on the processing

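No paired analysis was possible because each group is 1 library and no result comes from a test, and for the same reason no replicate could be left out. ChIP and methylation depth is unknown, so a peak absent from a list is not shown to be absent from the cells. With TMM or median-of-ratios scaling 3 members were 2-fold or more higher, and the log2 change of Blvrb was 0.01 in place of −0.04. That of Slc40a1 was 1.49 with a pseudocount of 0.1 RPKM and 1.12 with 1 RPKM.

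At a 1.5-fold threshold 5 members were higher, and 2 genes of the wider pathway were higher and 1 lower. With a filter of 5 RPKM, 1 member remained past 2-fold, since Slc40a1 lies under that level. In the stronger 50% of each list, the peaks near members, untreated and with vitamin C, numbered 31 and 27 for H3K4me1, 41 and 47 for H3K4me3, 30 and 31 for H3K27ac, and 30 and 11 for PU.1. The shares without a counterpart were then 87.1% and 85.2% for H3K4me1 and 16.7% for untreated H3K27ac. Within 10 kb of the members there were 32 and 16 H3K4me1, 31 and 38 H3K4me3, 27 and 26 H3K27ac, 26 and 14 PU.1, and 8 and 13 Runx1 peaks, fewer because the window is smaller. There, 50% of untreated PU.1 peaks had no counterpart, against 63.9% of all untreated PU.1 peaks. With the same number of strongest peaks in both lists, 22 untreated PU.1 peaks lay near members, and 31.8% of untreated and 33.3% of vitamin C PU.1 peaks had no counterpart, against 64.4% and 8.33% in the full lists. When a reciprocal overlap of 50% was required, the shares without a counterpart were 18.3% and 30.1% for H3K4me3, 20.3% for untreated H3K27ac, 37.5% for PU.1 with vitamin C and 30.8% for untreated Runx1. Shares over all peaks were not calculated for the stronger 50%, the equal-number lists or the reciprocal overlap. The shares near members under these settings are therefore not shown to be particular to the members. Both within 10 kb and inside the gene span, the methylation lists held 1 region in the mutant MeDIP list, 0 in MeDIP deMR, 1 in MeDIP iMR, 2 in hMeDIP iHR and 0 in WGBS deMR.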
